A study of Mus musculus with 16 samples.

Results

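Replication-dependent histone genes supply the histone proteins that package newly copied DNA. They are expressed in S phase, lack introns and, unlike other genes, give an mRNA that ends in a conserved stem-loop in place of a poly(A) tail. In mouse they lie in clusters in which short genes for the linker histone H1 and the core histones H2A, H2B, H3 and H4 stand close together, often as divergent H2A and H2B pairs that share 1 promoter. NPAT, phosphorylated by cyclin E and CDK2, is known as the shared activator of these genes, and SLBP binds the stem-loop of their mRNAs.

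The genes were all protein-coding genes whose symbol starts with Hist1h, Hist2h, Hist3h or Hist4h in GENCODE M21, 67 of 21938 protein-coding genes. Their members are the peaks of 4 deposited lists that share at least 1 bp with a gene or the 5 kb on each side. Each peak was counted once, which gave 37 of 23983 peaks in KO talazoparib cells, 45 of 35459 in KO DMSO cells, 23 of 15544 in WT talazoparib cells and 35 of 28559 in WT DMSO cells. Peaks of the 4 lists that overlapped by at least 1 bp were merged, which gave 55 histone regions of 60797 regions in all.

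The data are from SSB-seq, which labels single-strand breaks by a brief nick translation with E. coli DNA polymerase I and digoxigenin-dUTP, pulls the labelled DNA down with an antibody and sequences it. The cells were C57BL/6JRj mouse embryonic stem cells kept in 2i medium with LIF. The 4 conditions were Tdg-depleted cells (KO) with talazoparib, KO cells with DMSO, wild type (WT) cells with talazoparib and WT cells with DMSO. TDG is a DNA glycosylase that removes thymine from mismatches and oxidised forms of methylated cytosine, and KO cells lost a Tdg minigene that is excised on addition of 4-OHT. The protocol describes 4-OHT for all samples alike. Talazoparib blocks the poly(ADP-ribose) polymerases that act at DNA breaks, and was given at 5 nM for 24 h. Each condition had 3 IP libraries and 1 input library, and its list gives 1 pooled value per peak. No spread between replicates can therefore be given, no test between conditions was possible, and all differences between conditions are descriptions of 4 lists. KO and WT libraries ran on different flow cells, 2 per genotype, and the effect of genotype cannot be told apart from that of the flow cell. The lists hold no RNA values, so neither the cell type nor the loss of Tdg was checked. They rest on 66.4, 69.2, 83.8 and 87.0 M IP tags in KO talazoparib, KO DMSO, WT talazoparib and WT DMSO cells, and on 28.3, 24.8, 24.5 and 38.1 M input tags in the same order.

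The 67 genes lie in 4 clusters on mm10. Hist1 on chromosome 13 holds 54 genes in 4 blocks, numbered 1 to 4 along the chromosome, which lie at chr13:21715763-21837530 (18 genes), chr13:22035164-22043676 (5 genes), chr13:23531050-23764406 (29 genes) and chr13:23933773-23934851 (2 genes). Hist2 at chr3:96219865-96270132 holds 10 genes. Hist3 at chr11:58948920-58956830 holds 2 genes, and Hist4 at chr6:136801553-136804415 is the single gene Hist4h4.

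The promoters of divergent pairs lie under several of the strongest peaks, and 4 are shown because each was touched by a peak in at least 3 lists. They come from RefSeq on GRCm38.p6, the assembly behind mm10, and run from 250 bases before to 50 bases after the gene's start, on the gene's own strand. Capitals mark matches on either strand to TATAAA (the TATA box), CCAAT (the box bound by NF-Y) and ATTTGCAT (the octamer bound by POU2F1). Hist2h2ac lies at chr3:96220831-96221130 on the minus strand, Hist1h2an at chr13:21787199-21787498 on the minus strand, Hist1h2ac at chr13:23683910-23684209 on the minus strand and Hist1h2bn at chr13:21753826-21754125 on the plus strand.
Hist2h2ac promoter: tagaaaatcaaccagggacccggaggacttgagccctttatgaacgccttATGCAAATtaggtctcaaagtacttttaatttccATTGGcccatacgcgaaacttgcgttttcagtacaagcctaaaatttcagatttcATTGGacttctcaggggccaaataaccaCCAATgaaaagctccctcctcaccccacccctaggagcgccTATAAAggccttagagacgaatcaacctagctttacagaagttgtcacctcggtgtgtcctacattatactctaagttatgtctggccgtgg
Hist1h2an promoter: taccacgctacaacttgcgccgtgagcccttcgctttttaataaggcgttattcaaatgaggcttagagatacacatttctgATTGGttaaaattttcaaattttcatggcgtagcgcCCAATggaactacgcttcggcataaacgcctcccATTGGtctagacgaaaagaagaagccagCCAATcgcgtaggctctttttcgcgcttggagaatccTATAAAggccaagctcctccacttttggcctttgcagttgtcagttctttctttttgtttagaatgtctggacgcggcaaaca
Hist1h2ac promoter: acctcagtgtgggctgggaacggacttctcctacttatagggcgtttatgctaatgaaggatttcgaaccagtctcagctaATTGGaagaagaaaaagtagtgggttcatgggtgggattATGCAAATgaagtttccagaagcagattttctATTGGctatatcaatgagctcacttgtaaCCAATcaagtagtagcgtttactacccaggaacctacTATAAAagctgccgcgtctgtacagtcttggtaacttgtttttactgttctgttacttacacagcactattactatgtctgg
Hist1h2bn promoter: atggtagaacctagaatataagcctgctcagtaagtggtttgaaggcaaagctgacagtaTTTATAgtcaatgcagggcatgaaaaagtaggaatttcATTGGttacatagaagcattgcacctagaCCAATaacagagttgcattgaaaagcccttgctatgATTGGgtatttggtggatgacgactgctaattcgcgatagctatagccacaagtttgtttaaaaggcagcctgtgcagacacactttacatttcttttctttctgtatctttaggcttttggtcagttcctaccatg

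The Hist1h2ac promoter held a TATAAA on the gene's strand at position -32 from the start, CCAAT matches at positions -69, -98 and -169, and an octamer on the other strand at position -130. Hist1h2an had its TATAAA at position -33 and 4 CCAAT matches, and no octamer in this window. In the Hist1h2bn promoter the TATAAA read on the other strand at position -190, towards the divergent H2A gene of the pair. Promoters of 61 of the 67 genes were matched to RefSeq. Counting a match on either strand anywhere in the window, TATAAA was found in 35 of the 61, which is 57.4%, against 13.6% of all 32851 promoters of the table. It lay on the gene's strand in 30 of the 61, and there between positions -50 and -20 in 15. The last 2 counts were not made for all promoters. CCAAT was found in 52, or 85.2%, against 37.4%, and the octamer in 14, or 23.0%, against 1.74%. All 14 octamers lay in H2A promoters (7 of 17) or H2B promoters (7 of 16), and none was found in these windows of H1, H3 or H4 genes. CCAAT was found in every H1, H2A, H2B and H3 window and in 3 of 12 H4 windows.

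The stem-loop at the 3' end of the mRNA was searched as 6 paired bases around a 4-base loop that starts with TTT, within 150 bases after the stop codon. It was found in 63 of 67 genes, in 6 forms, at a median of 33 bases after the stop codon. The commonest form, in 41 genes, is that of Hist1h1c. The 4 examples below were covered by a peak in every list, and capitals mark the stem-loop.
Hist1h1c stem-loop: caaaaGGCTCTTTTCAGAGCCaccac
Hist2h2ac stem-loop: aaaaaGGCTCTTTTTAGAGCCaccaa
Hist1h3e stem-loop: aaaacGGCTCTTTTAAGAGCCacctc
Hist1h4h stem-loop: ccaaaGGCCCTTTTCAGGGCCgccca

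They lie at chr13:23739512-23739527 (plus strand), chr3:96220418-96220433 (minus), chr13:23561903-23561918 (minus) and chr13:23531458-23531473 (plus). The stem-loop was covered by a peak at 24 of 63 genes in KO talazoparib cells, 43 in KO DMSO cells, 12 in WT talazoparib cells and 24 in WT DMSO cells. It was covered in all 4 lists at 7 genes and in none at 15. No share at the same position of other genes was computed, and the lists differ in the number and length of their peaks. Hist1h2an, Hist1h3g, Hist1h4a and Hist2h2be gave no match to the searched form.

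At the deposited fold minimum of 4.0, most histone genes had a peak nearby in every condition. At least 1 peak fell in the window of 62 genes (92.5%) in KO talazoparib cells, 60 (89.6%) in KO DMSO cells, 46 (68.7%) in WT talazoparib cells and 58 (86.6%) in WT DMSO cells. Among all protein-coding genes the shares were 58.9%, 66.8%, 48.8% and 60.9% for the same lists. The histone shares were thus the higher ones in all 4 lists. Windows of neighbouring histone genes overlap, so the 37 peaks of KO talazoparib cells served 62 genes, and genes of a cluster are not independent of each other. Restricted to gene bodies, the WT talazoparib count was 28 genes and the WT DMSO count 38. With a fold over input of at least 6, the counts were 21, 42, 19 and 12 of the 67 genes. The share over all protein-coding genes at that fold was not computed. The lists differ in their number of peaks and input tags, so these counts cannot be read as a trait of histone genes.

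The annotated start itself, which counts each gene more strictly, lay inside a peak at 37 histone genes (55.2%) in KO talazoparib cells, 49 (73.1%) in KO DMSO cells, 23 (34.3%) in WT talazoparib cells and 33 (49.3%) in WT DMSO cells. The shares over all protein-coding genes were 33.1%, 41.8%, 25.2% and 33.3%. Protein-coding genes shorter than 2 kb, 1588 genes that resemble histone genes in length, had their start inside a peak in 13.4%, 18.2%, 10.1% and 14.3% of cases. Most of the histone genes are themselves among these 1588. The 83 genes of cytosolic ribosomal proteins, which every growing cell uses, had covered starts at 55, 74, 45 and 54 genes. Histone genes therefore lay above the average gene and above short genes in each list, and below ribosomal protein genes in each list.

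**Figure D1:**
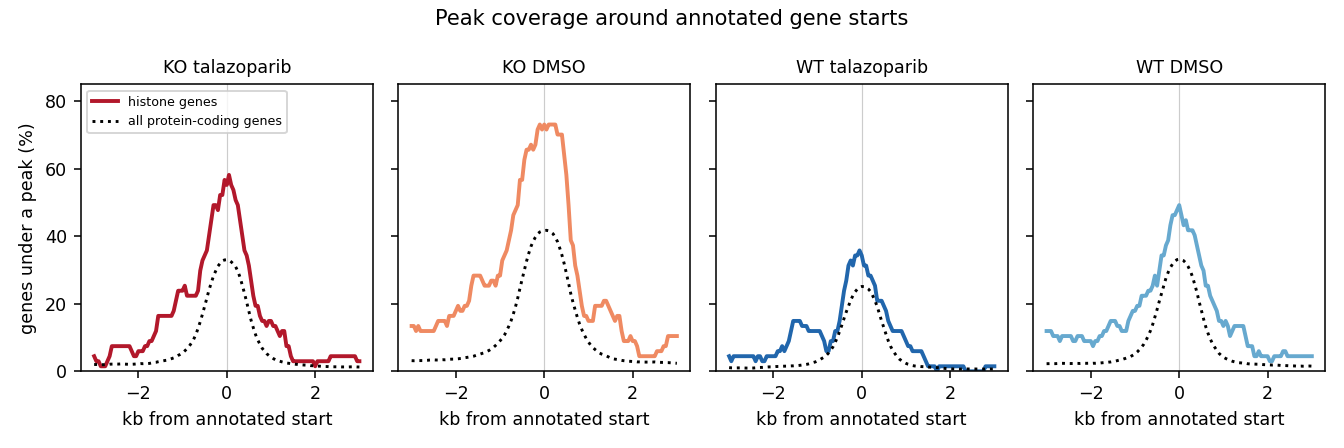
Share of genes (y axis, percent) whose sequence at each distance from the annotated start (x axis, kb) lies under a peak, for the 67 histone genes (coloured line) and all protein-coding genes (dotted line) in each list. The histone line is above the dotted line at the start in all 4 panels, and both lines have their maximum near the start.

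Most peak centres lay near the start codon of a histone gene, and each peak was assigned to the gene with the nearest start codon. Measured from the start codon, the peak centre lay within 500 bp for 29 of 37 peaks in KO talazoparib cells, 32 of 45 in KO DMSO cells, 19 of 23 in WT talazoparib cells and 26 of 35 in WT DMSO cells. Coding sequences of the core histones are shorter than 500 bp, so these counts alone do not tell the start from the stop codon. The median centre lay 111, 74, 95 and 82 bp downstream of the start codon in the same order. Coverage by peaks was highest within 100 bp of the start codon, at 59.7%, 74.6%, 37.3% and 53.7% of histone genes. At +500 bp, beyond the core histone coding sequences, it was 29.9%, 53.7%, 16.4% and 31.3%. At -1000 bp it was 20.9%, 29.9%, 8.96% and 16.4%. A histone coding sequence was touched by 32, 37, 21 and 29 of the peaks, and 5, 6, 2 and 4 lay between genes. Because these genes are short, a peak centred on the start codon usually covers the promoter and much of the coding sequence together.

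Peaks at histone genes held more tags than the typical peak of their list. The median Normalized Tag Count, the authors' IP tags scaled to 10000000 tags, was 17.2 at histone peaks in KO talazoparib cells, 19.5 in KO DMSO cells, 9.84 in WT talazoparib cells and 9.37 in WT DMSO cells. Over all peaks of the lists the medians were 7.45, 6.87, 5.07 and 4.83. Single histone peaks ranged between 3.84 and 50.9 tags in KO talazoparib cells, 4.41 and 59.2 in KO DMSO cells, 3.58 and 25.4 in WT talazoparib cells, and 2.93 and 47.9 in WT DMSO cells. The ranges of the 4 lists overlap, and the 2 KO lists have the higher medians.

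Histone peaks were also longer. They had a median length of 883, 1278, 750 and 857 bp, against 645, 722, 629 and 630 bp for all peaks. Per kb of peak the medians were 19.9 normalised tags in KO talazoparib cells, 15.7 in KO DMSO cells, 12.9 in WT talazoparib cells and 10.6 in WT DMSO cells, against 11.0, 9.54, 7.98 and 7.55 over all peaks. Input tags per kb, scaled in the same way, were also higher at histone peaks, with medians of 3.88, 2.53, 2.21 and 1.96 against 2.12, 1.61, 1.16 and 1.57 for all peaks. The part of the input in the tag difference was not tested. The median histone peak ranked within the best 14.1% of its list by the authors' score in KO talazoparib cells, 25.7% in KO DMSO cells, 35.7% in WT talazoparib cells and 27.4% in WT DMSO cells.

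**Figure D2:**
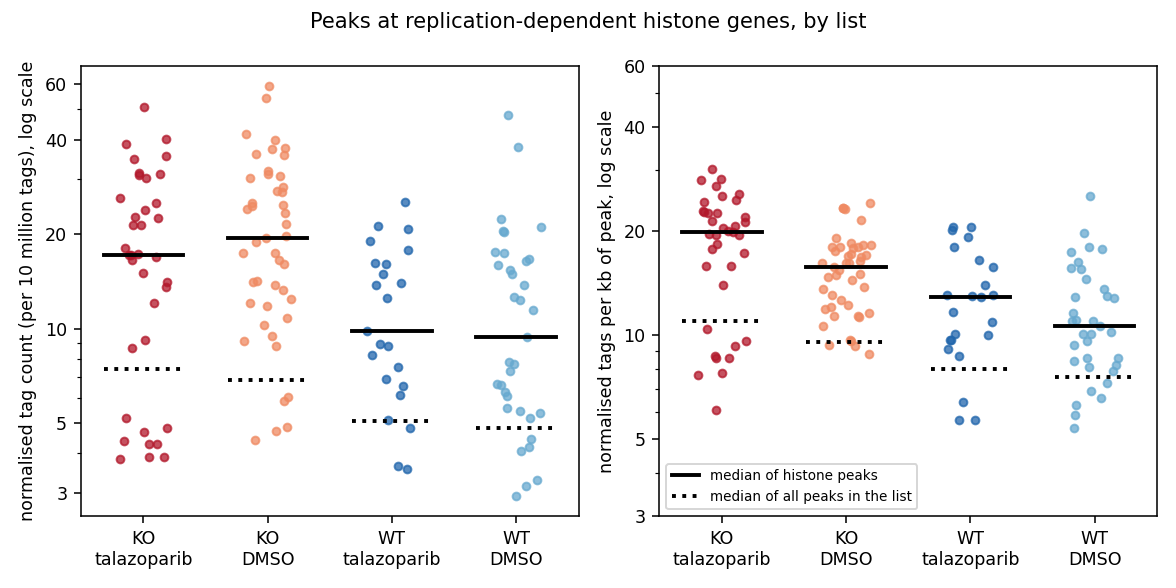
Each point is 1 peak at the histone genes, with its Normalized Tag Count (left, log axis) or normalised tags per kb of peak (right, log axis), in the 4 lists. Solid bars mark the median of the histone peaks and dotted bars that of all peaks of the list; on both scales the solid bar is above the dotted bar in every list.

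The sequence under the peaks differed from that of other peaks in CpG and repeats more than in GC. The median GC content of histone peaks was 53.5%, 51.5%, 54.1% and 51.6%, against 53.5%, 52.3%, 54.8% and 52.5% over all peaks. They held 5.76, 5.39, 6.74 and 5.75 CpG per 100 bp, against 2.40, 2.11, 3.18 and 2.00. Repeat-masked bases made up 3.92%, 5.50%, 4.13% and 4.17% of them, against 10.7%, 10.9%, 9.86% and 10.6%.

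By tags summed over its peaks, the strongest region in all 4 lists lay at the end of Hist1 block 3, chr13:23760553-23765317, over Hist1h4a, Hist1h3a and Hist1h1a, genes for H4, H3 and a linker histone. Its peaks summed to 63.99 normalised tags in KO talazoparib cells, 59.2 in KO DMSO cells, 28.98 in WT talazoparib cells and 47.9 in WT DMSO cells. It was 1 long peak in both DMSO lists, 3653 bp in KO and 4764 bp in WT cells. In KO talazoparib cells the same stretch held 3 separate peaks, the largest, with 50.9 tags, nearest to Hist1h3a. Per kb it had 22.7 tags in KO talazoparib cells, 16.2 in KO DMSO cells, 10.4 in WT talazoparib cells and 10.1 in WT DMSO cells, and both WT values lay below the median histone peak.

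The region over Hist2h2ab, Hist2h2ac and Hist2h2be (chr3:96219376-96221627) came next by the mean of the 4 lists, although Hist1h1c was above it in KO talazoparib cells. It had 38.8 normalised tags in KO talazoparib cells, 54.2 in KO DMSO cells, 21.2 in WT talazoparib cells and 37.8 in WT DMSO cells. Per kb its values were 22.5, 24.1, 20.6 and 19.7, close together in all 4 conditions. The WT talazoparib peak covered the Hist2h2ab promoter but ended before the shared promoter of Hist2h2ac and Hist2h2be shown above.

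Hist1h1c, a linker histone gene (peaks at chr13:23738349-23740417), had 40.2 tags in KO talazoparib cells, 37.3 in KO DMSO cells, 19.0 in WT talazoparib cells and 22.4 in WT DMSO cells. Per kb KO talazoparib cells stood apart with 28.3, against 18.0 in KO DMSO cells and 12.9 in each WT list. Hist1h1d, another linker histone gene, had 15.0, 30.6, 6.92 and 20.3 tags in the same order. Its values were thus lower with talazoparib in both genotypes before division by length, while per kb they were 20.0, 15.7, 10.9 and 10.6.

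The divergent pair Hist1h2an and Hist1h2bp had 26.1 tags in KO talazoparib cells, 37.5 in KO DMSO cells, 14.9 in WT talazoparib cells and 20.4 in WT DMSO cells. Hist1h2ac and Hist1h2bc, another such pair, had 31.3, 31.8, 9.84 and 17.6 in the same order. Hist1h2ak and Hist1h2bn had 22.5, 18.9, 8.77 and 17.4. In each of these 3 pairs both KO lists were above both WT lists. Of 12 divergent pairs with start codons 279 to 335 bp apart, all an H2A with an H2B gene, a peak touched the promoter between them at 10 in KO talazoparib cells, 9 in KO DMSO cells, 5 in WT talazoparib cells and 6 in WT DMSO cells. These 3 pairs were touched in all 4 lists. Hist1h2bq with Hist1h2ao and Hist1h2ap with Hist1h2br were touched in none. The share over divergent pairs of other genes was not computed.

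The other regions among the 10 strongest carried the coding sequence of 1 histone gene each, and the Hist2h2aa1 region also reached the start of Hist2h3c1. Hist1h4h, an H4 gene, had 31.2 tags in KO talazoparib cells, 23.3 in KO DMSO cells, 13.8 in WT talazoparib cells and 16.7 in WT DMSO cells. Hist2h2aa1, an H2A gene, had 22.7, 28.3, 20.8 and 16.4 in the same order. Hist3h2a, the H2A gene of the Hist3 cluster, had 34.7 in KO talazoparib cells, 13.8 in KO DMSO cells, 4.83 in WT talazoparib cells and 21.1 in WT DMSO cells. At Hist3h2a the 2 genotypes thus differed in whether the talazoparib value was the higher or the lower one, which was not tested. The annotated extent of Trim17, a gene outside the histone families, has the same left end as that of Hist3h2a and runs beyond it. The part of Trim17 in these peaks cannot be told apart.

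**Figure D3:**
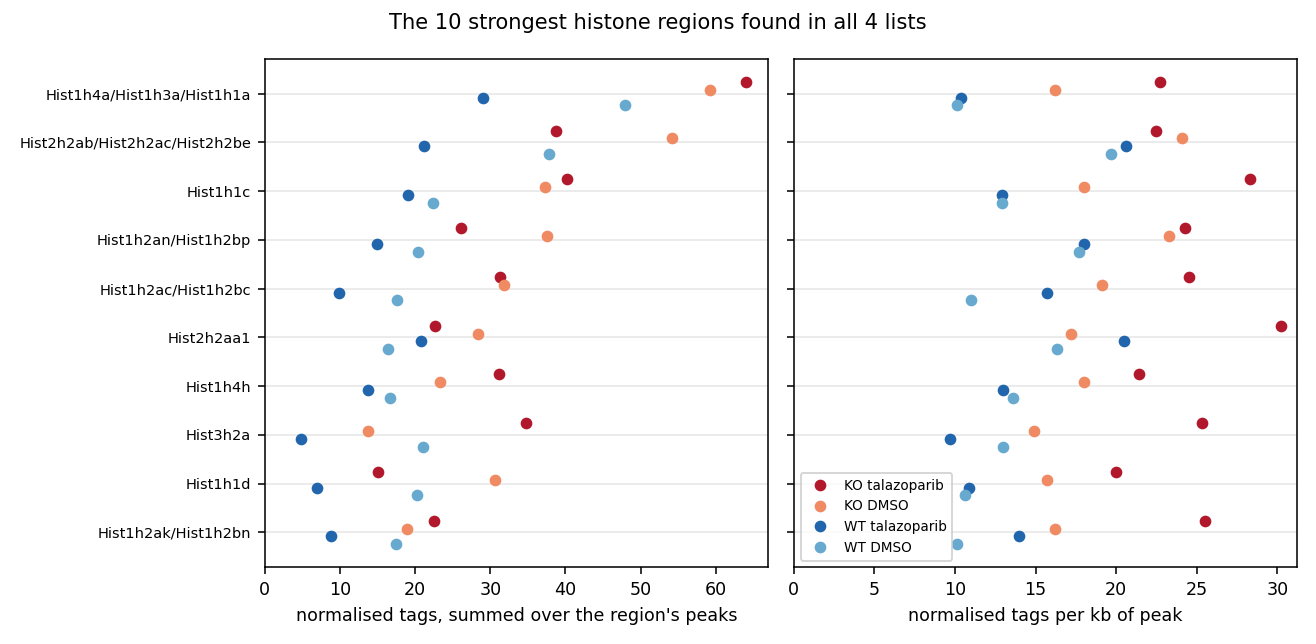
Normalised tags summed over the peaks of a region (left) and normalised tags per kb of peak (right) in each condition, for the 10 regions with the highest mean among those found in all 4 lists. The KO talazoparib point is the rightmost of the right panel in 9 of the 10 regions, and of the left panel in fewer. Over all peaks the KO talazoparib list also has the highest median per kb, at 11.0.

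Hist2 had further regions. Hist2h2aa2 had 21.4 normalised tags in KO talazoparib cells, 21.5 in KO DMSO cells and 16.2 in WT talazoparib cells, and no peak in WT DMSO cells. Hist2h4 had 17.2, 24.6 and 17.8 in the same 3 conditions and no peak in WT DMSO cells. The region over Hist2h3b and Hist2h2bb had 35.5 in KO talazoparib cells, 41.6 in KO DMSO cells and 12.6 in WT DMSO cells, and no peak in WT talazoparib cells. A small peak near Hist2h3c2 was in the KO DMSO list alone, with 4.70 tags. A peak that is missing from a list has no value there, not a value of 0.

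In Hist3, Hist3h2ba had 23.9 tags in KO talazoparib cells and 16.1 in KO DMSO cells, and no peak in either WT list. A peak of 6.07 tags beyond Hist3h2a was found in KO DMSO cells only. Hist4h4 had 19.7 tags in KO DMSO cells, 14.0 in WT talazoparib cells and 14.9 in WT DMSO cells, and no peak of its own in KO talazoparib cells. The other region in its window, with 4.29 tags in KO talazoparib cells, 35.9 in KO DMSO cells and 13.8 in WT DMSO cells, reaches the start of the neighbour H2afj, a replacement histone gene.

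Across the Hist1 blocks the summed tags were highest in block 3, with 348.4 in KO talazoparib cells, 435.9 in KO DMSO cells, 132.4 in WT talazoparib cells and 223.1 in WT DMSO cells. Peaks there covered 17.3, 27.8, 11.9 and 21.2 kb. Block 1 had 112.9, 212.8, 36.4 and 67.3 tags over 6.2, 14.5, 2.6 and 6.3 kb. Block 4, which holds the testis histone genes Hist1h2ba and Hist1h2aa, had a single peak of 4.82 tags, in KO talazoparib cells.

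**Figure D4:**
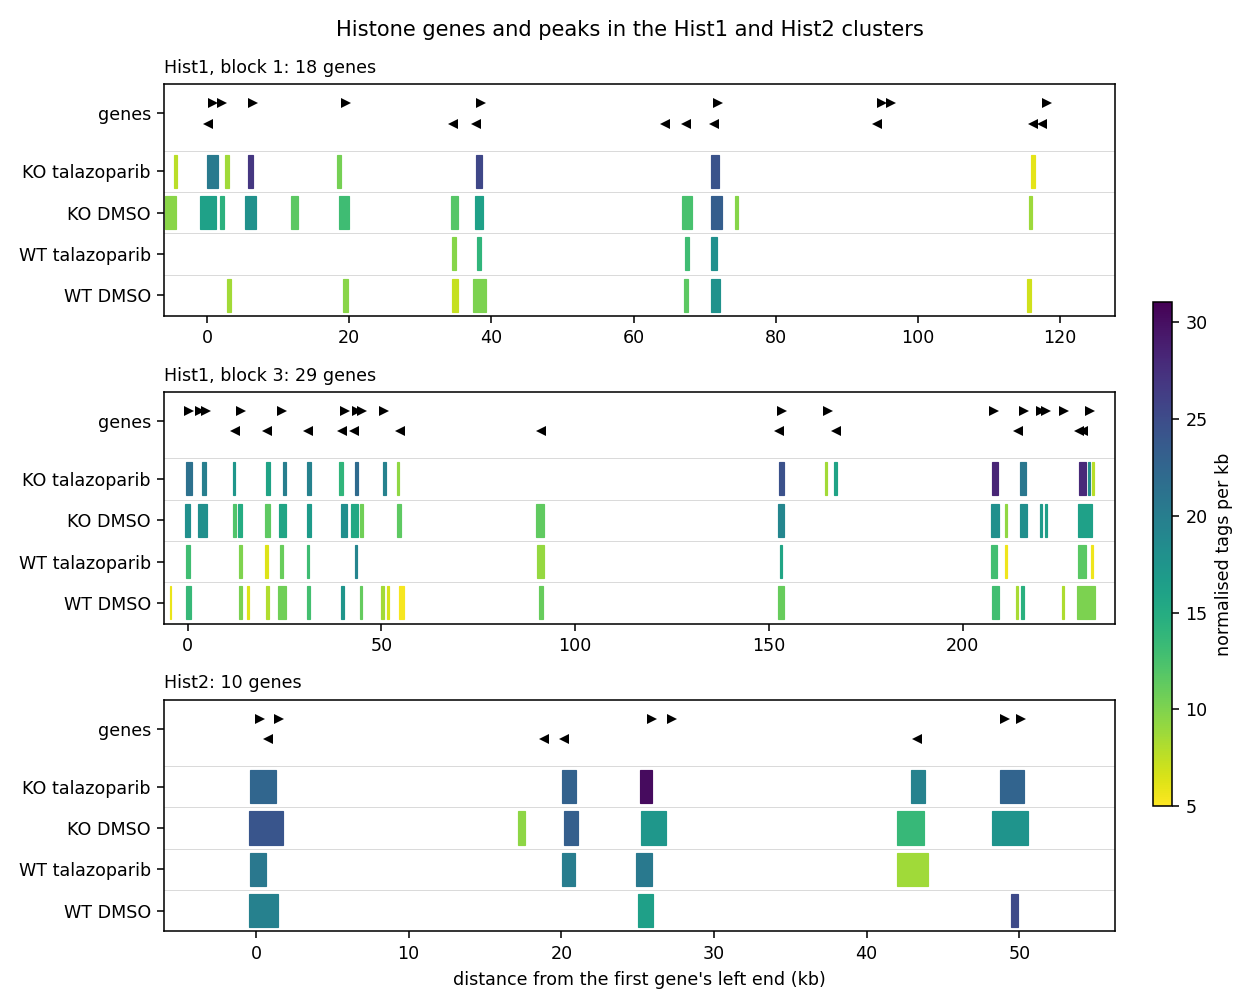
Histone genes (arrowheads, pointing in the direction of transcription) and the peaks of the 4 lists (bars, coloured by normalised tags per kb) in Hist1 blocks 1 and 3 and in Hist2; the x axis is the distance in kb from the left end of the first gene. Peaks sit at genes and gene pairs, and the stretch of Hist1 block 1 that holds Hist1h2bq, Hist1h2ao and Hist1h4m, left of the last gene group, has none in any list.

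By histone class, the coding sequence of H2A genes was touched by a peak at 14 of 18 genes in KO talazoparib cells, 14 in KO DMSO cells, 9 in WT talazoparib cells and 10 in WT DMSO cells. For H2B genes the counts were 13, 15, 4 and 9 of 18. For H3 they were 4, 9, 4 and 6 of 12, for H4 they were 7, 9, 6 and 9 of 13, and for H1 they were 4 of 6 in every list. Among all protein-coding genes shorter than 2 kb the shares were 14.7%, 20.8%, 11.8% and 16.8%, and the lists differ in their number of peaks.

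Of the 67 genes, 42 had a peak in their window in all 4 lists and 18 had their coding sequence touched in all 4. Over all protein-coding genes, 39.0% had a peak in the window in all 4 lists, and 6.17% of those shorter than 2 kb had their coding sequence touched in all 4. A peak in the window in all 4 lists was also found at 56 of the 83 ribosomal protein genes. The same held for 26 of 28 genes for histone transcription, processing and chaperones, so recurrence is not particular to histone genes. Hist1h2bq, Hist1h2ao and Hist1h4m had no peak in their window in any list. Hist1h1t (the testis linker histone gene), Hist1h4c, Hist1h2ba and Hist1h2aa had one in KO talazoparib cells alone. The coding sequence was untouched in every list at 8 genes: the 3 without any peak, Hist1h2ap, Hist1h2br, Hist2h3c1, Hist2h3c2 and Hist1h1b.

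Many of these genes are near copies of each other, which bears on where reads can be placed. Across the 67 genes, a median of 84.1% of the 32-base stretches of the coding sequence occur elsewhere in the genome. Within 1 kb of the gene the median was 19.1%. It was over 50% at 9 genes: Hist1h2bq, Hist1h2ao, Hist1h4m, Hist1h4n, Hist1h2ap, Hist1h2br, Hist2h3c2, Hist2h2aa2 and Hist2h2aa1. At these 9 a peak touched the coding sequence of 3 in KO talazoparib cells, 3 in KO DMSO cells, 2 in WT talazoparib cells and 1 in WT DMSO cells, against 39, 48, 25 and 37 of the other 58. At Hist1h2bq, Hist1h2ao and Hist1h4m the share within 1 kb was 100%, 98.7% and 96.5%. Hist1h1b, at 0.9%, was without a peak over its coding sequence although its sequence is nearly unique. The sources used here do not say how reads with several placements were treated, and the part of such reads in the missing peaks was not tested.

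Many histone regions recurred between lists. Of the 55 histone regions, 13 (23.6%) were found in all 4 lists, against 9.47% of all regions, and 15 (27.3%) in 1 list only, against 61.6%. The comparison is with all regions, and not with those at the starts of other genes. The 15 comprised 3 in KO talazoparib cells, 7 in KO DMSO cells and 5 in WT DMSO cells, and none in WT talazoparib cells. KO talazoparib and KO DMSO cells shared 30 regions, which were 85.7% of the histone regions in KO talazoparib cells and 66.7% of those in KO DMSO cells. Over all regions these shares were 59.2% and 39.7%. WT talazoparib and WT DMSO cells shared 18, which were 81.8% of those in WT talazoparib cells and 51.4% of those in WT DMSO cells, against 53.9% and 29.3% over all regions.

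At shared regions, signal per kb could be compared between lists. Talazoparib over DMSO in KO cells had a median ratio of 1.22 over 30 histone regions, between 0.502 and 1.76, against a median of 1.13 over all 14004 shared regions. Without division by length the median was 0.847, against 0.965 over all shared regions, because the peaks of the talazoparib list were shorter. Per kb, 6 of the 30 (20.0%) were at least 1.5-fold higher with talazoparib and 1 was at least 1.5-fold lower, against 12.0% and 1.70% of all shared regions. Undivided, 1 of the 30 was at least 1.5-fold higher and 10 (33.3%) were at least 1.5-fold lower, against 11.2% and 20.3%. The members thus lay further in opposite directions on the 2 scales, and no direction of change can be given for them.

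Single genes turned in the same way. Hist2h2aa1 had 30.2 tags per kb in KO talazoparib cells and 17.2 in KO DMSO cells, a ratio of 1.76 (95% counting interval 1.41 to 2.18), but 22.7 and 28.3 tags undivided. Hist3h2a was above on both scales, with 25.3 tags per kb in KO talazoparib cells and 14.9 in KO DMSO cells (ratio 1.69, interval 1.33 to 2.18), and with 34.7 and 13.8 tags undivided. The peaks of the 2 lists at Hist3h2a share 621 bp, of 1373 bp in KO talazoparib cells and 924 bp in KO DMSO cells. These exact intervals cover counting error only, and not the spread between cultures or libraries.

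In WT cells talazoparib over DMSO had a median of 1.03 per kb over 18 regions, between 0.745 and 2.08, against 0.946 over all 8261 shared regions. Undivided it was 0.837, against 0.824. Per kb, 1 of the 18 (5.56%) was at least 1.5-fold higher and none was at least 1.5-fold lower, against 4.81% and 10.4% of all. Undivided, 1 was at least 1.5-fold higher and 6 (33.3%) were at least 1.5-fold lower, against 8.24% and 33.4%. The 1 higher region per kb was that of Hist1h2ag and Hist1h2bj, with 16.5 tags per kb in WT talazoparib cells and 7.9 in WT DMSO cells (ratio 2.08, interval 1.41 to 3.10). Its peaks in the 2 WT lists share 116 bp only, so the ratio compares largely different stretches.

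**Figure D5:**
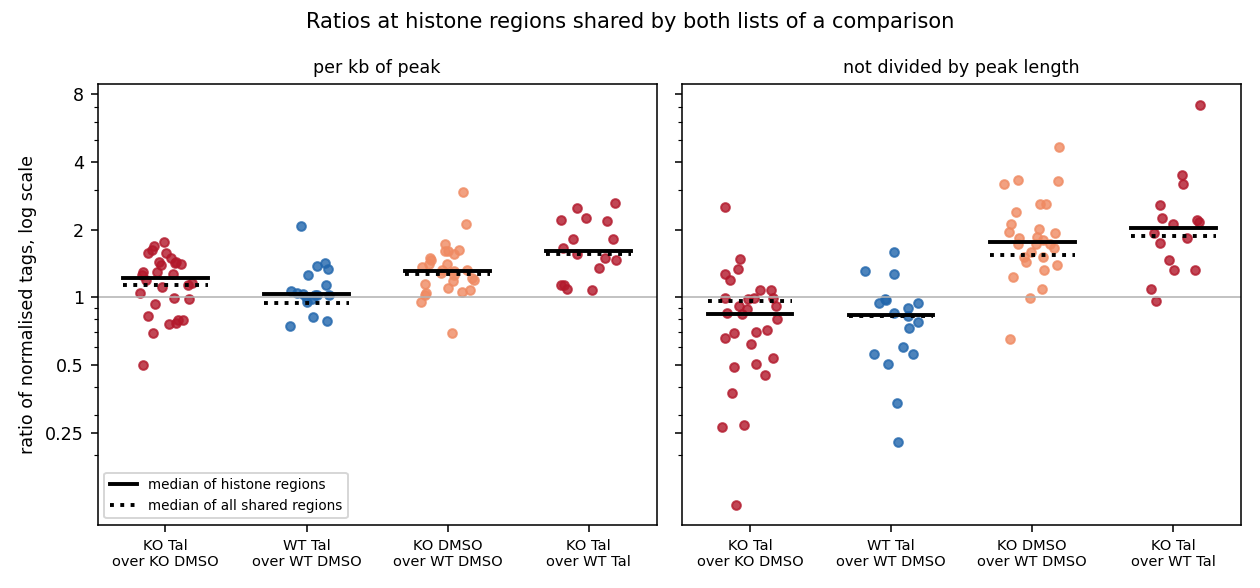
Ratio of normalised tags (y axis, log scale) at the histone regions shared by both lists of each comparison, per kb of peak (left) and not divided by length (right). Points are regions, solid bars their medians and dotted bars the medians of all shared regions. The KO over WT medians are above 1 in both panels. The solid bars of talazoparib over DMSO are above 1 on the left and below 1 on the right. The dotted bar of WT talazoparib over WT DMSO is below 1 on the left too, at 0.946.

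The medians of the KO over WT ratios were above 1 on both scales. In DMSO the median was 1.31 per kb over 28 histone regions, between 0.696 and 2.94, and 1.27 over all 14704 shared regions. Values at least 1.5-fold higher were found at 7 of the 28 (25%), against 20.1% of all. With talazoparib the median was 1.61 over 16 regions, between 1.08 and 2.62, and 1.56 over all 7901. At least 1.5-fold higher values were found at 9 of the 16 (56.2%), against 54.5%. Among the 9 is Hist1h1d, whose KO and WT talazoparib peaks share 0 bp and were joined through the DMSO peaks. With a reciprocal overlap of at least 50%, the talazoparib median was 1.48 over 12 pairs of peaks, against 1.56 over all 5729. The histone regions thus stood close to the background in both comparisons. Both comparisons cross flow cells, which cannot be told apart from genotype.

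Hist3h2a had the highest KO over WT ratio with talazoparib, 25.3 tags per kb in KO and 9.7 in WT cells, a ratio of 2.62 (interval 1.88 to 3.80). Its peaks in the 2 talazoparib lists share 457 bp, of 1373 bp in KO and 500 bp in WT cells. Hist1h1c had 28.3 in KO and 12.9 in WT cells (ratio 2.20, interval 1.80 to 2.70). At both genes KO was also above WT undivided. In DMSO the pair Hist1h2ag and Hist1h2bj had the highest ratio, with 23.3 in KO and 7.9 in WT cells (ratio 2.94, interval 2.10 to 4.18), but its peaks in the 2 lists share 216 bp only, and the WT DMSO peak does not reach the stretch between the start codons. Per kb, the region over Hist2h3b and Hist2h2bb was the one whose interval lay below 1 in DMSO, with 17.5 in KO and 25.2 in WT cells (ratio 0.696, interval 0.556 to 0.873). There the WT peak was 500 bp and the KO peak 2371 bp long, and undivided KO was the higher, with 41.6 tags in KO and 12.6 in WT cells.

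Genes whose products act on the histone genes and their mRNAs were compared as a separate list of 28 genes for transcription, 3' end processing and histone chaperones. A peak lay in the window of 27 of the 28 in each list. Their starts were inside a peak at 23 in KO talazoparib cells, 25 in KO DMSO cells, 22 in WT talazoparib cells and 23 in WT DMSO cells. The strongest peak at Npat had 41.7, 39.6, 21.7 and 20.3 normalised tags in that order, and that at Slbp had 60.3, 42.5, 22.5 and 29.5. Both genes thus had values in the range of the strongest histone regions.

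Replacement histone variants, which are also made outside S phase, mostly from polyadenylated mRNAs, carried peaks at 11 of 11 genes in KO talazoparib cells, 10 in KO DMSO cells, 7 in WT talazoparib cells and 10 in WT DMSO cells. Over all protein-coding genes the shares were 58.9%, 66.8%, 48.8% and 60.9%. One of the 11, H2afj, lies near Hist4h4, and its strongest peak in each list is also a member peak of Hist4h4. H2afz, the H2A.Z gene, had 67.4, 56.2, 28.9 and 37.1 tags at its strongest peak. H2afx, whose product is phosphorylated at DNA breaks, had 50.4, 70.5, 26.3 and 27.3. H3f3b had 38.1, 44.8, 35.6 and 29.1, above H2afz and H2afx in WT talazoparib cells and below both in the 2 KO lists. Some other variants were lower. H2afy had 4.82 in KO talazoparib cells, 11.9 in KO DMSO cells and 3.39 in WT DMSO cells, and no peak in WT talazoparib cells. Cenpa had no peak in either WT list.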

How the data were processed

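SSB-seq peak lists of mouse embryonic stem cells were analysed, 1 list for each of 4 conditions. Tools named in the submitters' processing notes, without roles, are HOMER 4.11, Bowtie2 2.3.4.2, R 3.6 and Picard 2.9.2, on build mm10. Per the file headers, the deposited Normalized Tag Count is a signal of IP tags per 10000000. The input tags of the deposited lists are also a signal. The authors' fold is the ratio of IP to input tags, at least 4.0 in every list, and the authors' score ranks peaks within a list. IP totals came from the step of low values, which 100% of them met within 0.0051. Starts are printed as deposited, since their base (0 or 1) is not stated.

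Overlaps, ratios and profiles were computed with Python 3.11.15, pandas 2.3.3 and scipy 1.17.1, and tested on simulated data. Ratios have exact 95% binomial intervals of recovered tags. Regions with values given in every list were the 10 with the highest mean among those in all 4 lists, and all of Hist2, Hist3 and Hist4. Other genes were named where they had no peak or a peak in few lists. The genes, lists and rules were chosen with earlier results of these data known. No test between conditions was possible. Alternatives changed the window, overlap, fold, input minimum, number of peaks and length scaling.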

Additional observations from a re-analysis of the deposited data

Results flagged for a closer look

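At the region of the divergent pair Hist1h2ag and Hist1h2bj, the talazoparib over DMSO ratios lay on opposite sides of 1 in the 2 genotypes. Of 13 regions with a ratio in both genotypes it was the 1 region whose counting intervals lay on opposite sides of 1. Per kb, KO cells had 17.7 normalised tags with talazoparib and 23.3 with DMSO, and WT cells had 16.5 with talazoparib and 7.9 with DMSO. The KO ratio over the WT ratio was 0.366. Before division by length, KO cells had 12.1 tags with talazoparib and 24.0 with DMSO, and WT cells had 8.23 with talazoparib and 5.17 with DMSO. The WT peaks share 116 bp only, and the WT DMSO peak does not reach the stretch between the start codons, so the WT ratio compares largely different stretches. The KO peaks share 453 bp. With a reciprocal overlap of at least 50% neither ratio would be formed. The difference was not tested, since each condition is 1 pooled list.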

How the results depend on the processing

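Of 68 alternative values, 55 stayed within 1.5 times the reported count or within the interval of the reported median, 11 moved beyond it and 2 turned direction. Counts depended most on the fold over input. With a fold of at least 6, the histone genes with a peak numbered 21 in KO talazoparib, 42 in KO DMSO, 19 in WT talazoparib and 12 in WT DMSO cells. The peaks themselves numbered 9 in KO talazoparib, 21 in KO DMSO, 9 in WT talazoparib and 7 in WT DMSO cells. The median density in WT talazoparib cells was then 9.07 tags per kb. Shares over all genes and all peaks at that fold were not computed. In gene bodies alone, 28 genes in WT talazoparib cells and 38 in WT DMSO cells had a peak. Without division by length, the talazoparib over DMSO median turned to 0.847 in KO cells and to 0.837 in WT cells, and the KO over WT median in DMSO moved to 1.77. The 1 kb window, the 50% overlap, at least 3 input tags and the 15544 best peaks of each list left all counts within 1.5 times. No paired analysis was possible because the deposited lists carry no replicates. The fold over input rests on few input tags, with medians of 10.5, 7.5, 5.5 and 7.0 per histone peak in KO talazoparib, KO DMSO, WT talazoparib and WT DMSO cells.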
